A study of Arabidopsis thaliana with 12 samples.

Results

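The heavy-metal-associated isoprenylated plant proteins (HIPPs) are a plant family named for the pairing of a metal-binding domain with a lipid anchor. The domain holds a short loop in which a pair of cysteines, with any residues between them (CxxC), can bind a metal ion such as copper, zinc or cadmium. The C-terminus carries a cysteine to which an isoprenyl group is attached, and this anchor can bring the protein to membranes. Members are known in Arabidopsis for cadmium binding and tolerance, drought and cold responses, nuclear partners and, for *HIPP27*, susceptibility to a root-feeding nematode.

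The 10 genes of the family followed here, the members, are among 25872 genes measured in roots of *Arabidopsis thaliana*. *AT3G56891* was taken because its transcript is higher with aluminium (Al), *HIPP21* (*AT5G17450*) because its transcript differs between the genotypes, and the other 8 as related genes. The Al values of *AT3G56891* and the genotype values of *HIPP21* are therefore given as descriptions, with no test. The 4 groups were Al-treated *GmNTL4*-overexpressing plants (OX Al), Al-treated wild type (WT Al), untreated overexpressing plants (OX control) and untreated wild type (WT control), with 3 libraries each. The control samples are labelled CK, read here as without Al, and the sequencing methods do not describe their solution or time. *GmNTL4* is a soybean gene for a membrane-bound NAC transcription factor, driven in the OX plants by the 35S promoter, which is active in most tissues. More than 1 OX line was obtained in the study, and which of them was sequenced is not stated. Al was given as 5 µM AlCl3, for 24 h in the sample labels and 48 h in the methods, in a modified nutrient solution at pH 4.5 without phosphate. The ages of the seedlings at harvest are not given in the sources used here, and nothing states that libraries of a group came from separate cultures, so the p-values measure only the spread between these libraries.

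Levels are fragments scaled for gene length and library size (FPKM), as deposited. Fold changes are differences of log2(FPKM + 0.5), a scale that understates changes of low genes, and carry the standard error (SE) of a limma model of all 12 libraries, with p-values adjusted by the Benjamini-Hochberg method over 20773 genes. A gene was called where the adjusted p was at most 0.05 and the log2 fold change at least 1 in size. The libraries held 16162941 to 17136217 fragments. All 8 root marker genes examined were above 0 in every library. Their sums were 192 to 232 FPKM in OX Al and 195.5 to 279 FPKM in WT Al, against 256 to 314 FPKM in OX control and 227 to 371 FPKM in WT control, so that OX Al lay below OX control without overlap. With Al in OX, 6 of the 8 had a log2 fold change below 0 and 0 were called (limma), where 0.862% of all tested genes were called. The 2 at an unadjusted p of at most 0.05 (13.7% of all tested genes) were *COBL9* and *EXPA7*, while *SHR* and *CASP2* were above 0. *PHO1*, the largest part of the sums, averaged 109 FPKM in OX Al and 140 FPKM in OX control, with overlap. The 6 shoot photosynthesis markers were also above 0 in every library. Their sums were 45.9 to 75.9 FPKM in OX Al and 22.2, 438 and 271 FPKM in WT Al, against 31.4 to 46.9 FPKM in OX control and 246, 49.5 and 31.6 FPKM in WT control, each in replicate order. The sums of 10 genes listed as Al-inducible were 1046 to 1367 FPKM in OX Al and 971 to 1180 FPKM in WT Al. In control they were 470, 960 and 973 FPKM in OX and 518, 794 and 830 FPKM in WT. The first replicate was the lowest in both control groups. With Al, 9 of the 10 had a log2 fold change above 0 in OX and 8 in WT. Limma called 0 in both, where it called 0.862% of all tested genes in OX and 0.332% in WT. At an unadjusted p of at most 0.05 there were 4 in OX (13.7% of all tested genes) and 2 in WT (12.5%). *STOP2* was lower with Al, by -0.455 in OX and -0.294 in WT. Not all the others rose clearly: *CIPK23* was at 0.187 in OX and -0.015 in WT, and *RAE1* at 0.007 in OX and 0.278 in WT. *WAK1* reached at most 0.816 FPKM.

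All 10 members carried the features that name the family. Each coding sequence held CxxC codons and a cysteine codon in the fourth position from the end, a pair of features that 0.681% of 27444 annotated protein-coding genes shared. The sequences around the first metal-binding loop are shown for the members on which the results turn, because this loop is what makes them metal-binding proteins. They are 5′ to 3′ coding DNA from RefSeq (TAIR10.1), with the codons from the first to the second cysteine in capitals.
AT3G56891 metal loop: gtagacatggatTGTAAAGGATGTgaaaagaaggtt
HIPP21 metal loop: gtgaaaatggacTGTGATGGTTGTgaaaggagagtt
AT4G39700 metal loop: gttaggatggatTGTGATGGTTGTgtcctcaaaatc
HIPP25 metal loop: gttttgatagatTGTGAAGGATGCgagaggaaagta
HIPP26 metal loop: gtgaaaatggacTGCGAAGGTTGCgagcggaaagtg

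The ends of the same coding sequences show the anchor. Capitals mark the last 4 codons, which begin with the cysteine codon, and the stop codon follows in lower case.
AT3G56891 anchor: aatgctcatgctTGTACTATCATGtga
HIPP21 anchor: gtccacgccgctTGTTCCATCATGtga
AT4G39700 anchor: aatcctaatgctTGCTCTATTATGtag
HIPP25 anchor: aacgcctccgctTGTGTTGTTATGtga
HIPP26 anchor: aacccggcggctTGTGTGGTCATGtga

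In every member the last codon before the stop was ATG. The loops of *HIPP21* and *AT4G39700* had the same 4 codons, and those of *HIPP20* and *HIPP22* encoded the same residues with other codons. The translated members were 147 to 283 residues long, and several fell into close pairs. Identity, as a share of the shorter protein, was 75.7% between *HIPP20* and *HIPP22*, 74.5% between *HIPP25* and *HIPP26*, 69.4% between *HIPP26* and *HIPP27* and 62.0% between *AT4G39700* and *AT4G08570*. *HIPP21* was closest to *HIPP20* (60.4%) and *HIPP22* (55.0%). *AT3G56891* had no close relative among the members, its nearest being *AT4G39700* with 39.2%, nor had *AT5G60800*, at 20.5% to 36.0% identity with the others.

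*AT3G56891* lies at chr3:21064088-21064986 on the minus strand. It was at 16.4, 65.8 and 72.3 FPKM in OX Al and 24.7, 25.9 and 25.8 FPKM in WT Al, against 5.15, 3.08 and 4.90 FPKM in OX control and 2.1, 1.25 and 1.11 FPKM in WT control. All 6 Al libraries lay above all 6 control libraries. The WT Al libraries were almost equal, whereas OX Al replicate 1 was the lowest of the 6 Al libraries and the other OX Al libraries were the highest. By group, the means were 51.5 ± 30.6 FPKM in OX Al, 25.5 ± 0.682 FPKM in WT Al, 4.38 ± 1.13 FPKM in OX control and 1.49 ± 0.534 FPKM in WT control (SD, n = 3 each), so OX Al and WT Al overlapped while the remaining neighbours in this order did not. The Al mean was 11.8 times the control mean in OX (log2 fold change 3.18, SE 0.45) and 17.1 times in WT (3.74, SE 0.45). As OX and WT are bulk roots, more cells of a type that holds the transcript and more transcript per cell cannot be told apart, here and for every gene below.

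**Figure D1:**
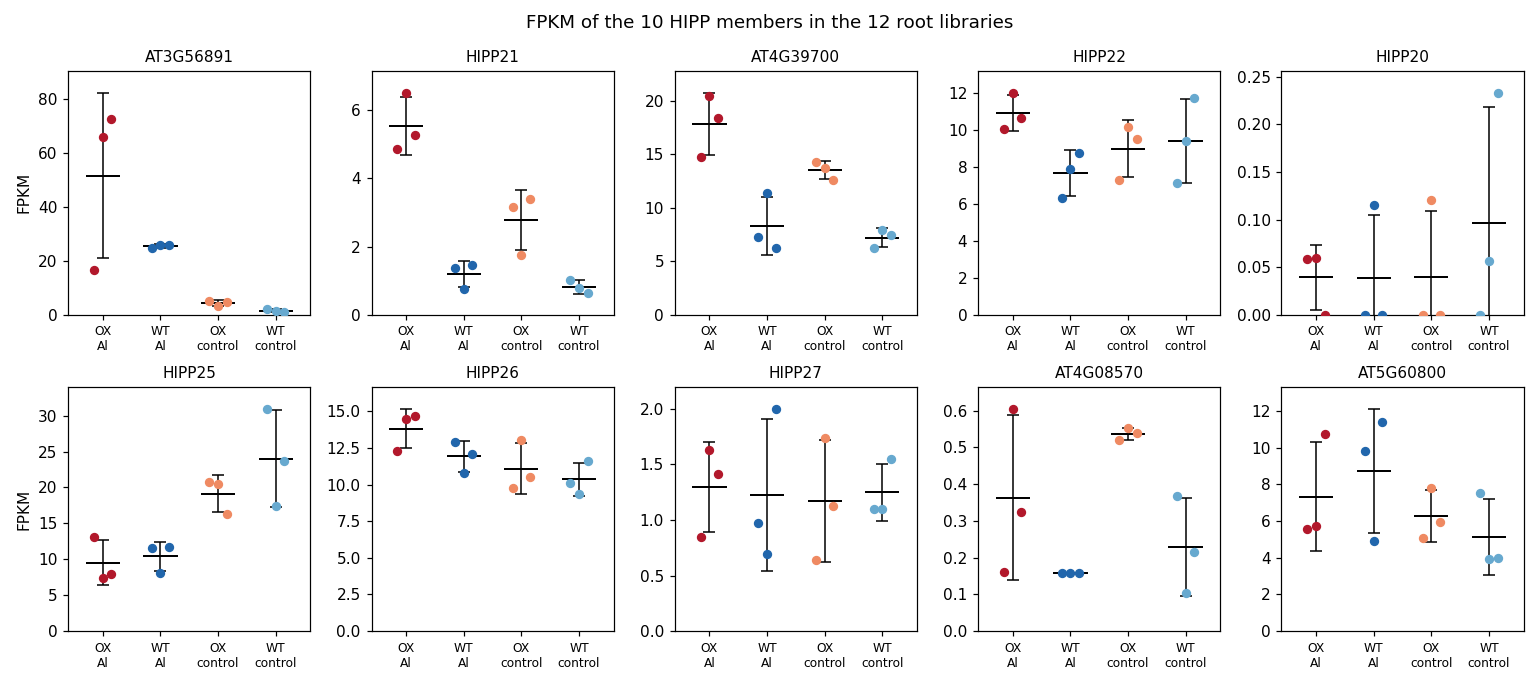
FPKM (y axis, starting at 0 with its own scale in each panel) of the 10 members in the 4 groups; points are the 3 libraries of a group, the bar is the mean and the whisker the SD. AT3G56891 was highest in the Al groups, HIPP21 and AT4G39700 were higher in OX than in WT with and without Al, and HIPP25 was lower in both Al groups.

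The genotype comparison was not used to choose *AT3G56891* and was tested. It shares libraries with the Al values that were used, so its p-values are not free of that choice, here and in the counts below. In control, the 3 OX libraries lay above the 3 WT libraries, with a ratio of means of 2.95 and a log2 fold change of 1.3 (SE 0.45), which did not pass (limma, adjusted p = 0.837, unadjusted p = 0.0151). The WT control values rested on 25, 15 and 13 fragments. Under Al the ratio was 2.02 and the log2 fold change 0.74 (SE 0.45), with overlapping groups (limma, adjusted p = 0.564). It depended on each OX Al library. It was 1.42 without replicate 1, 0.43 without replicate 2 and 0.37 without replicate 3, and none passed (limma, adjusted p = 0.0844, 0.857 and 0.842). That library also had the lowest Al-inducible sum of OX Al, 1046 FPKM, although it lay within the WT Al range.

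The 3 tested genes whose log2 levels over the 12 libraries were most like those of *AT3G56891* were *AT1G70390* (Pearson's r = 0.983), *AT3G24530* (r = 0.974) and *BCB*, the blue copper binding protein (r = 0.967). *BCB* averaged 364 FPKM in OX Al and 220 FPKM in WT Al, against 103 FPKM in OX control and 51.7 FPKM in WT control, and it too had its lowest OX Al level at 121 FPKM, outside the WT Al range of 199 to 234 FPKM. The 12 points share 4 groups, so these correlations describe a common order of groups and libraries.

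*HIPP21*, one of the members known for cadmium tolerance, lies at chr5:5755222-5757003 on the plus strand. Its levels were 4.85, 6.50 and 5.25 FPKM in OX Al and 1.36, 0.744 and 1.45 FPKM in WT Al, against 3.16, 1.76 and 3.39 FPKM in OX control and 1.02, 0.772 and 0.625 FPKM in WT control. Every OX library was above every WT library, and the 3 OX Al libraries were the highest of all. The OX mean was 4.67 times the WT mean under Al (5.53 ± 0.858 and 1.18 ± 0.384 FPKM) and 3.44 times in control (2.77 ± 0.883 and 0.806 ± 0.201 FPKM; SD, n = 3 each). On the log2 scale these differences were 1.86 (SE 0.25) and 1.3 (SE 0.25). The OX libraries held 41 to 152 *HIPP21* fragments each, against 15 to 35 in the WT libraries. The shoot marker sums of WT Al were 22.2, 438 and 271 FPKM in replicate order, beside *HIPP21* at 1.36, 0.744 and 1.45 FPKM. Their part in the *HIPP21* differences was not tested. The annotation has another locus, *AT5G02735*, overlapping *HIPP21* on the same strand, and how fragments were divided there is not given in the sources used here.

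The Al comparisons of *HIPP21* were tested. They share libraries with the genotype values by which it was chosen, so their p-values are not free of that choice, here and in the counts below. In OX, all Al libraries were above all control libraries with a ratio of means of 2.0 (log2 fold change 0.91, SE 0.25), and the difference did not pass (limma, adjusted p = 0.111). In WT the groups overlapped, with a ratio of 1.47 (0.35, SE 0.25, limma adjusted p = 0.624). The most similar genes over the 12 libraries were *AT5G67550* (r = 0.970), the ubiquitin-conjugating enzyme gene *UBC29* (r = 0.937) and *PWD* (r = 0.925), a kinase of starch. *HIPP21* and *AT3G56891* had an r of 0.586, on values by which both were chosen. Both had their highest mean in OX Al, but for *AT3G56891* the OX Al libraries overlapped those of WT Al.

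*AT4G39700*, at chr4:18424109-18425109 on the plus strand, had the largest tested genotype difference under Al. It was at 14.7, 20.4 and 18.4 FPKM in OX Al and 7.26, 11.4 and 6.27 FPKM in WT Al, against 14.3, 13.7 and 12.6 FPKM in OX control and 6.27, 7.91 and 7.46 FPKM in WT control. As for *HIPP21*, all OX libraries lay above all WT libraries. The OX mean was 2.15 times the WT mean under Al (log2 fold change 1.09, SE 0.20) and 1.88 times in control (0.87, SE 0.20). Neither passed over all genes (limma, adjusted p = 0.142 under Al and 0.368 in control, with unadjusted p = 0.000164 and 0.000975). The call under Al turned on a single library. Without WT Al replicate 2, the highest of its group and the one with the shoot marker sum of 438 FPKM, the log2 fold change was 1.33 and *AT4G39700* was called (limma, adjusted p = 0.0289), while leaving out any other library of the pair of groups gave 0.92 to 1.22 with adjusted p from 0.107 to 0.586. With Al, *AT4G39700* was 0.37 higher in OX on the log2 scale, without overlap (SE 0.20, limma adjusted p = 0.443), and 0.15 higher in WT with overlap (SE 0.20, limma adjusted p = 0.804). Over the 12 libraries the highest positive correlation between tested members was that of *AT4G39700* and *HIPP21* (r = 0.828), and the strongest negative one was that of *AT3G56891* and *HIPP25* (r = -0.914). Both rest on values by which *HIPP21* and *AT3G56891* were chosen, and on points that share 4 groups.

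*AT4G08570*, the closest relative of *AT4G39700*, was near the detection limit with 2 to 11 fragments a library. It was at 0.161, 0.604 and 0.324 FPKM in OX Al and 0.159 FPKM in each WT Al library, against 0.520, 0.552 and 0.538 FPKM in OX control and 0.368, 0.104 and 0.214 FPKM in WT control. OX was the higher genotype without overlap under both conditions, by ratios of 2.28 under Al and 2.35 in control. No WT library reached 0.5 FPKM, so *AT4G08570* passed the filter only through OX libraries. Its genotype differences and their p-values are not free of that choice. The lowest OX Al library and the WT Al libraries had 3 fragments each, so this separation under Al is not a difference in whole fragments. Neither difference passed (limma, log2 fold change 0.36, SE 0.24, adjusted p = 0.595 under Al and 0.52, SE 0.24, adjusted p = 1 in control).

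*HIPP22* and *HIPP20* are a close pair, also studied for cadmium tolerance, and differed strongly in level. *HIPP22* was at 10.1, 12 and 10.7 FPKM in OX Al and 6.32, 7.89 and 8.76 FPKM in WT Al, against 7.27, 10.2 and 9.52 FPKM in OX control and 7.11, 9.39 and 11.7 FPKM in WT control. Under Al the OX libraries were above the WT libraries by 0.49 on the log2 scale (SE 0.19, limma adjusted p = 0.405). In control the groups overlapped (-0.05, SE 0.19, limma adjusted p = 1). The interaction of genotype and Al was 0.54 (SE 0.27) and did not pass (limma, adjusted p = 0.94, unadjusted p = 0.0678). *HIPP20* had 0 to 4 fragments in every library, at most 0.233 FPKM. It failed the filter of 0.5 FPKM in at least 3 libraries and no fold change was computed for it.

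Of the 8 members that could be tested in each genotype comparison, 0 were called by limma under Al, where 0.0385% of all tested genes were called, and 0 in control, where 0.0433% were called. Under Al, 2 had an unadjusted p of at most 0.05 (10.8% of all tested genes). In control 3 did (4.71%), *AT4G08570* among them. The count was also 0 in both with voom on recovered fragments. The 3 members with OX above WT and no overlap under Al were *AT4G39700*, *HIPP22* and *AT4G08570*, where 8.77% of all tested genes had that pattern. The separation of *AT4G08570* under Al is not one of whole fragments, so only *AT4G39700* and *HIPP22* bear that count. The opposite pattern was seen in 0 members and in 10.8% of all tested genes. In control the members with OX above WT were *AT3G56891*, *AT4G39700* and *AT4G08570* (3.93% of all tested genes), with 0 lower (3.91%). As *AT4G08570* passed the filter only through OX libraries, its place in all these counts is not free of that choice. The median log2 fold change of the 8 was 0.28 under Al and 0.20 in control, beside -0.03 and -0.01 over all tested genes.

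**Figure D2:**
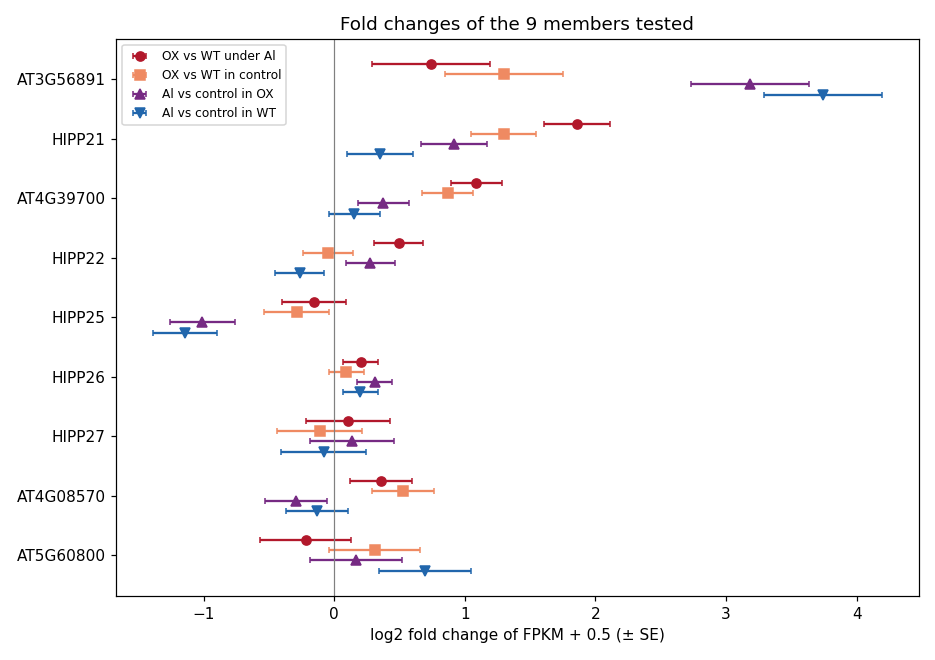
Log2 fold change of FPKM + 0.5 (x axis) of the 9 members tested (rows) in the 4 comparisons; symbols are the fitted values and whiskers the SE. AT3G56891 stands at 3.18 in OX and 3.74 in WT for Al against control, HIPP21 and AT4G39700 are above 0 in both genotype comparisons, and HIPP25 is at -1.01 in OX and -1.14 in WT for Al.

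*HIPP25*, at chr4:16685612-16686818 on the minus strand, was the member with the largest tested difference with Al, and it was lower. It was at 13.1, 7.40 and 7.97 FPKM in OX Al, against 20.7, 20.5 and 16.2 FPKM in OX control. In wild type it was at 11.5, 8.10 and 11.7 FPKM in WT Al, against 30.9, 17.4 and 23.7 FPKM in WT control. All 6 Al libraries were below all 6 control libraries, and the highest Al library, OX Al replicate 1, was the library with the lowest *AT3G56891* among Al libraries. The Al mean was 0.496 of the control mean in OX (log2 fold change -1.01, SE 0.25) and 0.435 in WT (-1.14, SE 0.25). Neither passed (limma, adjusted p = 0.0758 in OX and 0.0764 in WT). In OX the root marker sums were also lower with Al, and their part in the Al differences of *HIPP25*, *HIPP21* and *AT4G39700* was not tested. Without OX Al replicate 1 the difference in OX was -1.26 and *HIPP25* was called (limma, adjusted p = 0.018), and without each of the other libraries in turn the adjusted p was 0.133 to 0.341. In WT it was 0.0601 to 0.226. Without the first replicate of both control groups, the difference was -0.95 in both genotypes (limma, adjusted p = 0.136 in OX and 0.115 in WT). Between the genotypes *HIPP25* overlapped, with -0.16 under Al and -0.29 in control (SE 0.25, limma adjusted p = 0.843 and 1).

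*HIPP26*, listed as *FP6* in the annotation and the closest relative of *HIPP25*, is known to interact with the transcription factor ZFHD1 and the acyl-CoA-binding protein ACBP2. It was at 12.3, 14.5 and 14.7 FPKM in OX Al and 12.9, 10.8 and 12.1 FPKM in WT Al, against 9.75, 13 and 10.5 FPKM in OX control and 10.1, 9.37 and 11.6 FPKM in WT control. In all 4 comparisons the groups overlapped. Its log2 fold changes were 0.09 to 0.31 with an SE of 0.13, and the one for Al in OX, 0.31, had an adjusted p of 0.333 (limma). This pair of 74.5% identical proteins thus had transcripts that differed in their values with Al, a difference between genes that was not tested. The genes of both partners were measured, and 0 of 2 were called by limma in any comparison, while 1 of 2 had an unadjusted p of at most 0.05 in control (4.71% of all tested genes).

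*HIPP27*, the next relative, was low at 0.638 to 2.0 FPKM, or 14 to 43 fragments, and overlapped in every comparison, with log2 fold changes from -0.11 to 0.14 (SE 0.32). It overlaps another measured gene, *AT5G66100*, on the same strand, so its level is uncertain. *AT5G60800*, the longest member and the one with more than 1 CxxC stretch, was at 5.55, 5.71 and 10.7 FPKM in OX Al and 9.84, 4.91 and 11.4 FPKM in WT Al, against 5.07, 7.80 and 5.95 FPKM in OX control and 7.51, 3.90 and 3.96 FPKM in WT control. The groups overlapped in all comparisons. The highest log2 fold change was that for Al in WT (0.69, SE 0.35, limma adjusted p = 0.459).

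For Al against control, 0 of 8 testable members were called by limma in OX, where 0.862% of all tested genes were called, and 0 of 8 in WT, where 0.332% were. The counts at an unadjusted p of at most 0.05 were 3 in OX (13.7% of all tested genes) and 1 in WT (12.5%), and voom on recovered fragments called 0 in both. Al libraries lay above the control libraries without overlap for 2 of the 8 in OX (*HIPP21* and *AT4G39700*), where 9.11% of all tested genes did so, and for 0 of 8 in WT (8.25%). They lay below for *HIPP25* alone in each genotype, where 11.4% of all tested genes in OX and 8.17% in WT did so. Medians of the 8 were 0.22 in OX and 0.04 in WT, beside -0.01 and 0.01 over all tested genes. For the interaction, 0 of 7 testable members were called by limma and 0 had an unadjusted p of at most 0.05, while 0% of all tested genes were called and 4.98% had such a p. The fitted interactions of the chosen genes were -0.56 (SE 0.64) for *AT3G56891* and 0.56 (SE 0.36) for *HIPP21*, given as descriptions. Without OX Al replicate 1 the sign for *AT3G56891* turned, to 0.12.

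GmNTL4 is a NAC factor, and the letters CATGT occur in many NAC binding sites. CATGT on either strand (ACATG on the strand shown, with overlapping matches counted separately) was searched in the 250 bases before each gene's annotated start, and 34.9% of 25578 genes held it. It was present in 6 of the 10 members, with 4 matches before *HIPP25*, 3 before *AT5G60800*, 2 before *HIPP21* and 1 each before *HIPP20*, *HIPP22* and *AT4G08570*. *AT3G56891*, *AT4G39700*, *HIPP26* and *HIPP27* had none in this window. The windows of *HIPP21* and *AT4G39700* are shown because these members were the ones whose 6 OX libraries all lay above the 6 WT libraries, and they differ in these letters. They are 5′ to 3′ on the gene's strand from RefSeq (TAIR10.1), chr5:5754972-5755221 for *HIPP21* and chr4:18423859-18424108 for *AT4G39700*, with matches in capitals.
HIPP21 upstream: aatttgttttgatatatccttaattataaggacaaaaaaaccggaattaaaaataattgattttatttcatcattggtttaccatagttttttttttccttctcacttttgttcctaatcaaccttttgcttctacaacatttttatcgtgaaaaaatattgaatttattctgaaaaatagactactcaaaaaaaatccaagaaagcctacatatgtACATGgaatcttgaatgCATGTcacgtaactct
AT4G39700 upstream: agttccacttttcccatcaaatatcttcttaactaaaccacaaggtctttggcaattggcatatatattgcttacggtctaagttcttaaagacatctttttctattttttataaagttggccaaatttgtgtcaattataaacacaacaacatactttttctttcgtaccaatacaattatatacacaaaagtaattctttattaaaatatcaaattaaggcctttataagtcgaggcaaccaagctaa

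A match in these letters is a description of the sequence and not a binding site. Among members with matches, *HIPP21* was separated between the genotypes under both conditions and *HIPP22* under Al, while *HIPP25* and *AT5G60800* overlapped. Among those without, *AT4G39700* was separated under both conditions and *AT3G56891* in control, while *HIPP26* and *HIPP27* overlapped. Whether the matches bear on these levels was not tested.

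By symbol or product name in the annotation, 35 further measured genes were grouped with the family, of which 31 passed the filter. Of the 35, 29 held CxxC codons and 27 had the cysteine codon in the fourth position from the end. Among those named below, *AT5G48290* and *AT5G52750* lacked CxxC codons and *NAKR1* lacked that cysteine codon. Of the 31, limma called 0 in each of the 4 comparisons and in the interaction. Of all tested genes, it called 0.0385% (under Al), 0.0433% (control), 0.862% (Al in OX), 0.332% (Al in WT) and 0% (interaction). At an unadjusted p of at most 0.05 there were 2 for OX against WT under Al (10.8% of all tested genes), 5 in control (4.71%), 6 for Al in OX (13.7%) and 5 in WT (12.5%), and 2 for the interaction (4.98%). Voom on recovered fragments also called 0 in each. Their median log2 fold changes lay between -0.04 and 0.13. *AT1G55775* had the largest separated genotype differences of the 31. It was at 18, 26.7 and 26.4 FPKM in OX Al and 10.3, 13.1 and 17.4 FPKM in WT Al, against 12.6, 10.9 and 21.6 FPKM in OX control and 6.96, 6.17 and 7.76 FPKM in WT control. OX was above WT without overlap under Al (log2 fold change 0.79, SE 0.26, limma adjusted p = 0.374) and in control (1.0, SE 0.26, adjusted p = 0.491), and in WT the Al libraries were above the control libraries (0.89, SE 0.26, limma adjusted p = 0.163). *AT5G48290* had the lowest log2 fold change for Al in both genotypes among the other family genes named here. It was at 12.7, 6.40 and 6.23 FPKM in OX Al, against 27.7, 19.8 and 15.6 FPKM in OX control, and at 15.1, 10.5 and 15.8 FPKM in WT Al, against 33.0, 16.4 and 19.0 FPKM in WT control. Its Al libraries were below the control libraries in both genotypes, by -1.30 on the log2 scale in OX (SE 0.32, limma adjusted p = 0.0806) and -0.66 in WT (SE 0.32, adjusted p = 0.445). Without OX Al replicate 1 the difference in OX was -1.62 and passed (limma, adjusted p = 0.0195), and without each of the other libraries it was -1.09 to -1.5 and did not (adjusted p = 0.12 to 0.349). In WT it was -0.36 without WT control replicate 1.

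**Figure D3:**
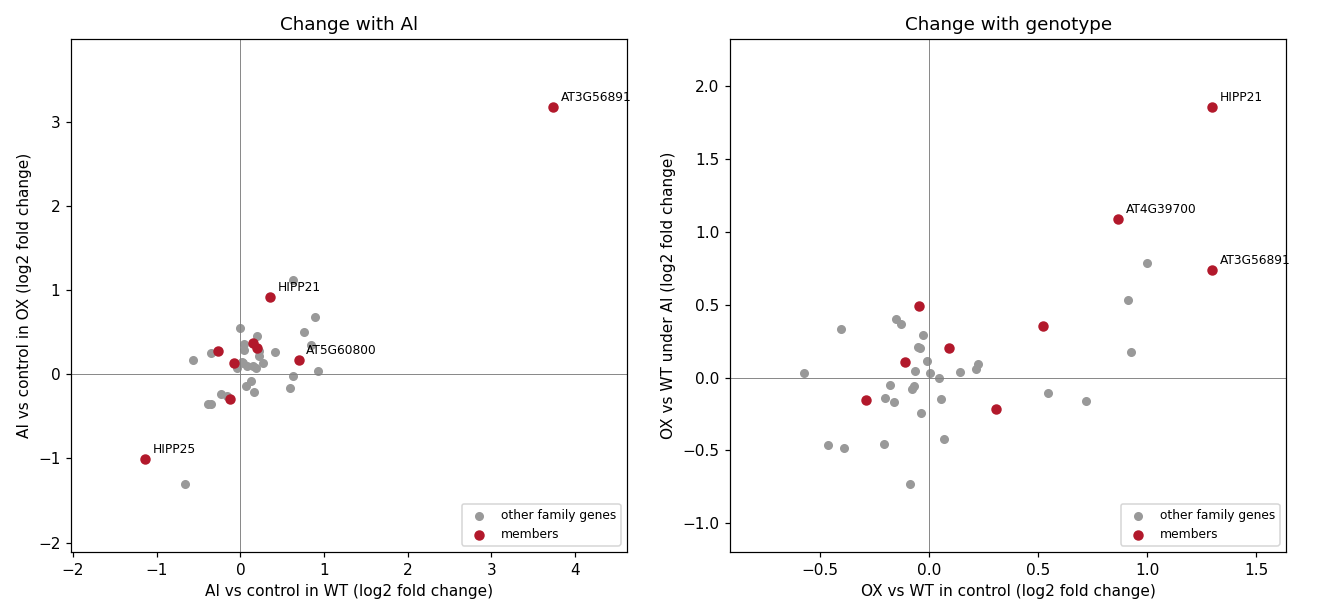
Left, log2 fold change for Al against control in OX (y axis) and WT (x axis); right, log2 fold change for OX against WT under Al (y axis) and in control (x axis). Each point is a gene, red for the 9 members tested and grey for the 31 other family genes. AT3G56891 on the left and HIPP21 on the right, chosen for these values, lie farthest from 0.

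Further differences without overlap were seen among other family genes named by the same rule. Under Al, *AT1G29100* was higher in OX by 0.53 (SE 0.32, limma adjusted p = 0.554) and *AT4G16380* was -0.15 (SE 0.08, adjusted p = 0.513). In control, *AT5G52750* was 0.93 higher in OX (SE 0.41, limma adjusted p = 1) and *AT3G05920* was -0.41 (SE 0.19, adjusted p = 1). With Al in WT, *AT1G29000* was 0.92 higher (SE 0.33, limma adjusted p = 0.265) and *AT3G05920* was -0.57 (SE 0.19, adjusted p = 0.24). With Al in OX, *AT5G27690* was 0.55 higher (SE 0.21, limma adjusted p = 0.274) and *NAKR1*, known for sodium and potassium levels and phloem function, 0.46 higher (SE 0.20, adjusted p = 0.339). None of these differences passed.

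Many copper chaperones and metal pumps carry the same domain without the lipid anchor. A list of 11 such chaperone and pump genes was tested, and their domains were not checked here. Limma called 0 of 11 for OX against WT under Al and in control, 0 for Al in WT and 0 for the interaction, and it called 1 of 11 for Al in OX (0.862% of all tested genes). At an unadjusted p of at most 0.05 there were 3 under Al (10.8% of all tested genes), 2 in control (4.71%), 5 for Al in OX (13.7%), 4 for Al in WT (12.5%) and 2 for the interaction (4.98%). The gene called was *HMA3*, for a pump that moves zinc and cadmium into the vacuole where it is functional, which was not examined here. It was at 1.83, 1.15 and 0.967 FPKM in OX Al, against 2.86, 3.67 and 3.19 FPKM in OX control, and fell by 1.07 on the log2 scale (SE 0.22, limma adjusted p = 0.0447). In wild type it was at 2.90, 1.74 and 1.97 FPKM in WT Al, against 4.86, 4.07 and 5.25 FPKM in WT control, a difference of -0.97 that did not pass (SE 0.22, limma adjusted p = 0.0825). The call in OX was lost without OX Al replicate 2 or 3 or any of the OX control libraries (-0.93 to -1.14, limma adjusted p up to 0.224), and held without OX Al replicate 1 (-1.26, adjusted p = 0.0127).

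The copper chaperones *CCH* and *ATX1* carry copper to such pumps, and were picked from this list after their values were seen. *CCH* was at 62.9, 50.0 and 59.8 FPKM in OX Al and 20.6, 34.6 and 36.5 FPKM in WT Al, against 31.4, 26.9 and 31.1 FPKM in OX control and 32.0, 22.0 and 36.8 FPKM in WT control. The OX Al libraries stood above the 9 others, which overlapped. *CCH* was higher in OX than WT under Al by 0.94 (SE 0.23, limma adjusted p = 0.262) and higher with Al in OX by 0.94 (SE 0.23, adjusted p = 0.0739). *ATX1* was at 117, 114 and 109 FPKM in OX Al and 83, 86.4 and 85.5 FPKM in WT Al, against 102, 83.8 and 93.5 FPKM in OX control and 108, 108 and 121 FPKM in WT control. With Al it was higher in OX (0.28, SE 0.10, limma adjusted p = 0.209) and lower in WT (-0.40, SE 0.10, adjusted p = 0.101), without overlap in either. Its interaction was 0.68 (SE 0.14, unadjusted p = 0.000416) and did not pass over all genes (limma, adjusted p = 0.913).

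**Figure D4:**
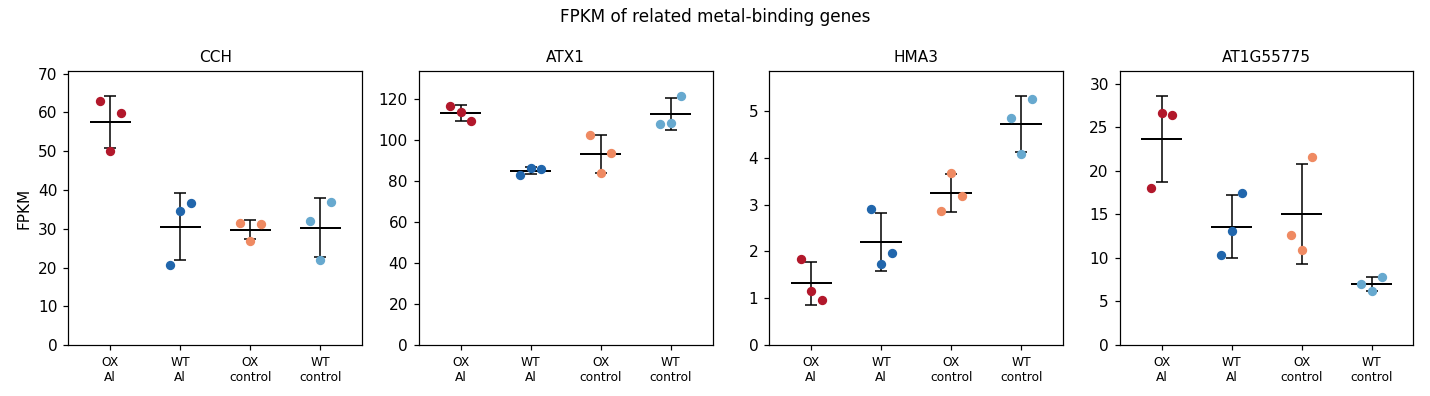
FPKM (y axis, starting at 0 with its own scale in each panel) of the copper chaperones CCH and ATX1, the pump HMA3 and the family gene AT1G55775 in the 4 groups; points are the 3 libraries of a group, the bar is the mean and the whisker the SD. CCH was highest in OX Al at 50.0 to 62.9 FPKM, ATX1 lay highest in OX Al and WT control, and HMA3 was lower in both Al groups.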

How the data were processed

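Root RNA from 12 libraries (4 groups of 3) was sequenced as paired 150-base reads on an Illumina platform. Alignment by the authors was to TAIR10 (HISAT2), per-gene counting was by HTSeq (version 0.6.0 in the submitters' processing notes), and the deposited values are FPKM. Their DEGseq comparisons were not used. Columns were matched to groups by the genotype, treatment and number in their names, and 0 columns were left without a sample. Fragments were read back from the FPKM for 100% of the 25872 genes (up to 1 factor for each gene). They served for depth, for the voom alternative and for the fragment numbers printed for single genes, which share that limit. Names, coordinates and sequences come from the TAIR10.1 annotation, in which 25579 identifiers were found. Coding features and identities were computed on the first gene model of each gene with biopython 1.88.

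Log2(FPKM + 0.5) was fitted with limma 3.58.1 (R 4.3.3) with a mean for each group, all 12 libraries and variances moderated with a trend, keeping 20773 genes that reached 0.5 FPKM in 3 or more libraries. The fit was tested on simulated data. Python 3.11.15 (matplotlib 3.10.9, pandas 2.3.3, numpy 2.4.6) gave the remaining tables and the plots. Every member is named; of the other family genes, up to 2 higher and 2 lower per comparison whose groups did not overlap; and the 3 genes most correlated with each chosen member. The members and lists were chosen with earlier results of these data known. The alternatives were other pseudocounts, filters and scalings, voom, fits of only the groups compared, variances without a trend, the replicate number as a block, and leaving out libraries. Transcripts of the transgene were not analysed here.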

Additional observations from a re-analysis of the deposited data

How the results depend on the processing

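For the libraries numbered alike in the 4 groups, deviations from the group means had correlations of -0.247 to 0.286. Whether libraries of 1 number shared a batch was not tested. With the replicate number as a block, *HIPP25* was the 1 member called for Al in OX (adjusted p = 0.0347) and the 1 called in WT (adjusted p = 0.0395), and *AT5G48290* (-1.30, adjusted p = 0.0232) was the 1 other family gene called for Al in OX. The other members' calls were 0 in every alternative that kept all libraries of the groups compared. *HIPP20* held 0 to 4 fragments a library and *AT4G08570* 2 to 11, so counting error limits their values.

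Over all genes, 8 were called for OX against WT under Al, with 4 under the block, 13 without a variance trend and 5 by voom. In control 9 were called, with 5 at a pseudocount of 1, 5 with no filter, 3 at a mean FPKM of at least 1, 2 under the block, 5 without a trend, 2 by voom, 0 with only those groups fitted and 2 without the first replicate of both control groups. For Al, 69 were called in WT, with 38 without a filter and 141 without those first replicates, and 179 in OX, with 39 from only those groups and 91 without the first replicates. For the interaction, 0 were called, with 1 without a filter and 1 without a trend. Leaving out each replicate in turn gave 1 to 9 genes under Al, 1 to 8 in control, 0 to 78 for Al in WT and 3 to 490 for Al in OX. It gave 0 to 1 members under Al (*AT4G39700* without WT Al replicate 2) and 0 to 1 for Al in OX (*HIPP25* without OX Al replicate 1), and 0 to 2 other family genes for Al in OX, the 2 without OX Al replicate 1.

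*HMA3* for Al in OX was not called at a pseudocount of 1 (-0.89), without a filter (-1.07, adjusted p = 0.0686), from only those groups (-1.07, adjusted p = 0.0916) or without the first control replicates (-1.14, adjusted p = 0.0851). Without the first control replicates, *HIPP27* turned to 0.08 in control and -0.11 for Al in OX, *AT4G08570* to 0.005 for Al in WT and *HIPP25* to -0.006 for the interaction. The cause was not tested. Leaving out each replicate in turn, these differences took both signs. For OX against WT under Al this was so for *HIPP27* (-0.12 to 0.41) and *AT5G60800* (-0.56 to 0.004), and in control for *HIPP22* (-0.22 to 0.12), *HIPP26* (-0.026 to 0.17) and *HIPP27* (-0.35 to 0.14). For Al it was so in OX for *HIPP27* (-0.11 to 0.38) and *AT5G60800* (-0.13 to 0.32), and in WT for *AT4G39700* (-0.084 to 0.32), *AT4G08570* (-0.26 to 0.005) and *HIPP27* (-0.39 to 0.15). For the interaction it was so for *AT3G56891* (-0.93 to 0.12), *AT4G08570* (-0.36 to 0.008), *HIPP25* (-0.11 to 0.34) and *HIPP27* (-0.031 to 0.52).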
